A study of Mus musculus with 2 samples.

Results

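The genes of the G1 phase engine described here were the D-type cyclin genes Ccnd1, Ccnd2 and Ccnd3, the E-type cyclin genes Ccne1 and Ccne2, the kinase genes Cdk4, Cdk6 and Cdk2, and the inhibitor genes Cdkn1b and Cdkn2b. They were chosen by symbol, and all 10 were found among the 14261 rows of the deposited expression table. RNA-seq had been made from 2 suspension cultures of TRE-ESCs, a line of mouse embryonic stem (ES) cells, 1 with dox (doxycycline, the inducer of tetracycline-controlled transgenes) and 1 with no agent, each at 36 h by its label. Both cultures were grown in dishes of low adsorption in N2B27 medium with LIF and 2i, a pair of inhibitors of the kinases MEK and GSK3. The labels name neither the parental line nor the number of clones, and the series title names c-Jun, which Jun encodes, as the inducer of differentiation. There was 1 library per group, so no difference below has a replicate check, a test or an error.

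D-type cyclins bind Cdk4 and Cdk6, and E-type cyclins bind Cdk2. Both kinds of complex phosphorylate the retinoblastoma protein and so release E2F factors, which switch on genes needed for DNA replication. Inhibitors of the INK4 family, such as p15 from Cdkn2b, bind Cdk4 and Cdk6, whereas inhibitors of the CIP/KIP family, such as p27 from Cdkn1b, act mainly on cyclin-Cdk2 complexes. Mouse ES cells are known for a short G1 phase and for strong Cdk2 activity. The D-type cyclin genes are known targets of growth factor and ERK signalling.

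The table held whole numbers on a normalized scale with the same quartiles, 14, 62 and 184, in both libraries. The depth of each library is therefore unknown, and the step that made the scales equal is not stated in the labels. Jun, the check of the label, stood at 3821 with dox and at 55 without dox. Of 10 naive ES cell markers 6 were at least 2-fold lower with dox and 0 were higher. Of all genes with a value of at least 50 in either library, 5.49% were lower and 9.23% higher by that limit. The summed value of the 10 markers was 11389 with dox and 18335 without dox. The ratio was below 0 for 9 of the 10, beside 54.9% of all such genes. Fgf4 had the lowest ratio, at 129 with dox and 631 without. The marker with a ratio above 0 was Pou5f1, the gene of Oct4, at 3572 with dox and 3230 without. Of 8 fibroblast markers 0 reached a value of 50 in either library, with a summed value of 72 with dox and 29 without. The largest with dox was Col3a1, at 39 against 2 without dox. The largest without dox was Postn, at 11 against 8 with dox. Dcn and Lum stood at 0 in both. Of 4 endoderm markers 2 were in the expression table, and of 4 trophectoderm markers 3 were, with Sox17, Foxa2 and Elf5 absent. None of the markers present reached 50 either. Their sums were 15 with dox and 8 without for endoderm, and 69 with dox and 60 without for trophectoderm. In such bulk RNA, fewer cells that express a gene and less of its RNA per cell cannot be told apart, and a different share of cells in each cycle phase would also move these values. The part of the lower naive markers in the results below was not tested.

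Promoters of 7 of the 10 genes could be matched by symbol in RefSeq on GRCm38.p6, in 8 windows of 250 bases before to 50 bases after a start. Ccnd1, Ccnd2 and Ccne2 were not searched. They were searched on both strands for the AP-1 site (TGANTCA), the cyclic AMP response element (CRE, TGACGTCA), the E-box (CACGTG) and the E2F site (TTTCGCGC or TTTGGCGC). The AP-1 site and the CRE differ by a base in spacing, so a match to one is not a match to the other. The upstream 250 bases of the windows of Cdkn2b and Cdk4 are printed, because Cdkn2b had the highest log2 ratio of the members and holds the motif that Jun dimers with ATF factors are known to bind, and Cdk4 had the highest value and holds the most E-boxes. Capitals mark the CRE in the first and the E-boxes in the second.
Cdkn2b, minus strand, chr4:89311033-89311282: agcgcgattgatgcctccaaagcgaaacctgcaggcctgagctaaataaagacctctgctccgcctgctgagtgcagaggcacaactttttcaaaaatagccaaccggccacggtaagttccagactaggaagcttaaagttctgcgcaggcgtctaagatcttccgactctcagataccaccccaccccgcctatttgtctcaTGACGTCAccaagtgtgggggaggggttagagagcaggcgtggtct
Cdk4, plus strand, chr10:127063285-127063534: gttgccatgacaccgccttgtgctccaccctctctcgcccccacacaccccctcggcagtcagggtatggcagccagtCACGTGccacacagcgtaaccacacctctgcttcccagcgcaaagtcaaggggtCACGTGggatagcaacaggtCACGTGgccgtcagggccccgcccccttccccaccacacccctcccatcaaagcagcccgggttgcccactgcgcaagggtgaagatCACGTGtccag

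The CRE of Cdkn2b begins 46 bases before the start. A CRE was found in 1 of the 8 windows and in 1.79% of 32851 windows of all genes. The 4 E-boxes of Cdk4, the motif known to be bound by Myc, begin 172, 118, 98 and 11 bases before its start. Windows with 4 or more E-boxes made up 0.0244% of all windows, and those with at least 1 made up 7.15%. Cdk6 was the other member with an E-box. The AP-1 site was found in 0 of the 8 windows, none of which is that of Ccnd1, and in 7.81% of all, and the E2F site in 0 of the 8 and in 0.813% of all. These matches describe letters in these windows and are not binding sites. The printed windows were chosen with the values known, and any link of a motif to a ratio was not tested.

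Between the cultures with and without dox, Ccnd1 was lower with dox and Cdkn2b was higher, while the other 6 members with a value of at least 50 in either library lay within 2-fold. Those 6 were Ccnd3, Ccne1, Ccne2, Cdk4, Cdk2 and Cdkn1b. A value of 50 in at least 1 library was the floor for counting a gene as higher or lower. Cdk6 and Ccnd2 were under it. Ratios were of values plus a pseudocount of 10, which understates the difference of low genes, and a gene was called higher or lower at 2-fold or more. Of 8547 genes at or above the floor, 9.23% were higher with dox and 5.49% were lower, so 1 call in each direction among 8 members is near that background. The median log2 ratio of the 8 members was −0.47, beside −0.08 over all genes at or above the floor. The ratio was below 0 for 5 of the 8 members, beside 54.9% of all genes at or above the floor.

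**Figure D1:**
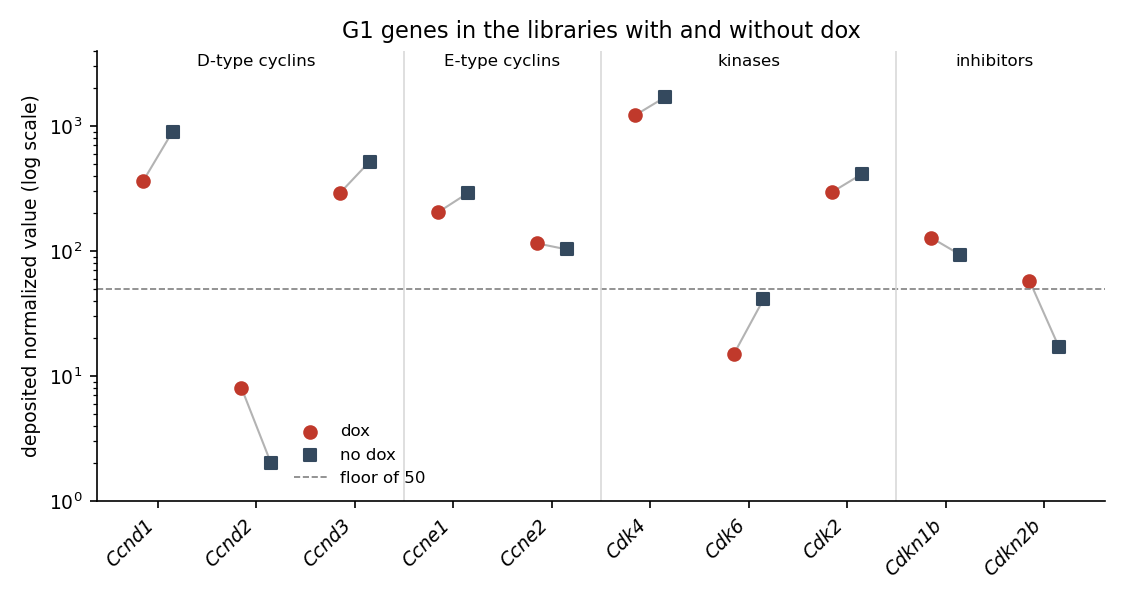
Deposited normalized value (log axis) of each G1 gene in the library with dox (red circles, left) and without dox (dark squares, right), 1 library each, with the floor of 50 as a dashed line. Values span 8 to 1223 with dox and 2 to 1699 without dox, and Ccnd2 and Cdk6 lie under the floor in both.

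Of the cyclin genes, Ccnd1 and Ccnd3 had the lowest ratios. Ccnd1, which encodes cyclin D1, had a value of 361 with dox, against 902 without dox. It was 2.46-fold lower with dox, a log2 ratio of −1.30, and a ratio as low or lower was seen in 2.47% of the genes that reached the floor. By value it ranked 1758 of all rows with dox and 471 without. Ccnd1 (ENSMUSG00000070348.5) lies on chromosome 7, minus strand, between 144929931 and 144939925 in GRCm38. Ccnd3, which encodes cyclin D3, had a value of 291 with dox, against 518 without dox, a log2 ratio of −0.81. It was inside 2-fold but past 1.5-fold, a limit that 17.7% of genes at or above the floor passed in the lower direction. Ccnd3 lies on chromosome 17, plus strand, between 47505051 and 47599691. Ccnd2, which encodes cyclin D2, stood at 8 with dox and at 2 without dox. Both values are near 0, and its log2 ratio of 0.58 depends on the pseudocount, being 1.58 with 1 and 0.16 with 50.

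Levels of different genes were compared per kb of the longest protein-coding transcript. On this scale Ccnd1 stood at 96.5 per kb with dox and 241 per kb without dox, and Ccnd3 at 138 per kb with dox and 245 per kb without dox. Ccnd3 was thus above Ccnd1 in both libraries, but below it in both when the longest transcript of any type was used, where Ccnd1 was 1.28 times Ccnd3 with dox and 1.80 times without dox. Ccnd2 had 1.26 per kb with dox and 0.316 per kb without dox. Ccnd1 thus made up 41.0% of the summed D-type level with dox and 49.6% without dox. A scaling by 1 factor per library would leave such shares as they are, but the equal quartiles and maximum are not what such a scaling gives. Equal values could also stand at nearly the same rank, as 291 did at 2219 with dox (Ccnd3) and 2218 without (Ccne1). The unstated step may thus have moved the shares, sums and quotients given here, which need not be proportional to RNA amount. The shares also depend on the transcript length: with the mean length of the protein-coding transcripts the shares of Ccnd1 were 25.5% with dox and 32.6% without. The quotient of the deposited values of Ccnd1 and Ccnd3 needs no transcript length, and was 1.24 with dox and 1.74 without dox.

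The E-type cyclin genes were closer between the libraries. Ccne1, which encodes cyclin E1, had a value of 205 with dox, against 291 without dox, a log2 ratio of −0.49. Ccne2, which encodes cyclin E2, had a value of 115 with dox, against 103 without dox, a log2 ratio of 0.15. Both were within 2-fold, on opposite sides of 0. Per kb, Ccne1 stood at 102.5 with dox and 145.5 without dox, and Ccne2 at 38.3 with dox and 34.3 without dox. Ccne1 gave 72.8% of the summed E-type level with dox and 80.9% without dox. The summed D-type level per kb was 236 with dox and 487 without dox, and the summed E-type level was 141 with dox and 180 without dox. The D-type sum was thus 1.67 times the E-type sum with dox and 2.71 times without dox. With the mean length of the protein-coding transcripts these quotients were 1.94 and 2.87.

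**Figure D2:**
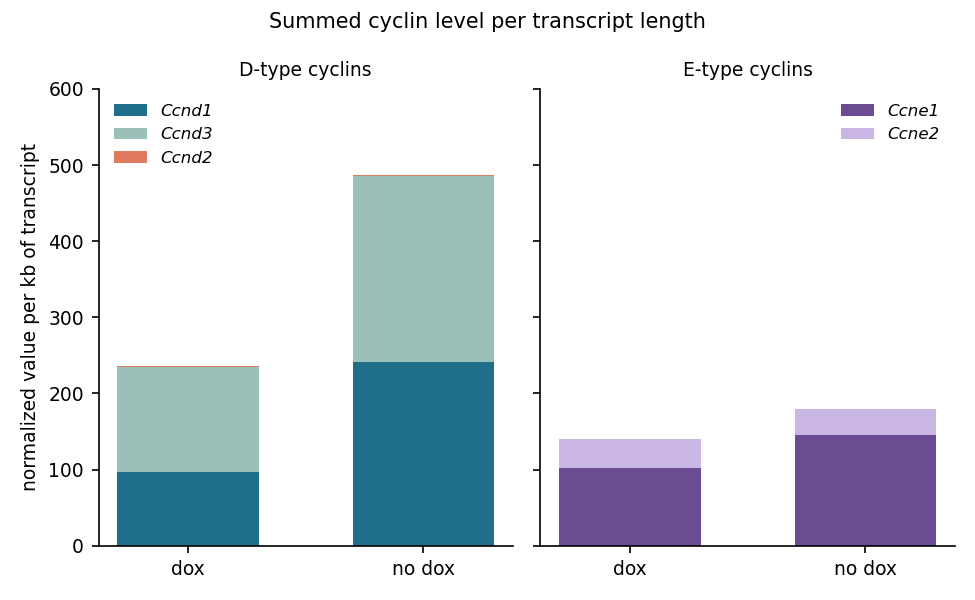
Normalized value per kb of the longest protein-coding transcript, stacked by gene, for the D-type (left) and E-type (right) cyclins in the library with dox and the library without dox, 1 library each. The D-type stack reaches 236 with dox and 487 without dox, the E-type stack 141 and 180, and Ccnd2 is too low to be seen.

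The kinase genes Cdk4 and Cdk2 had nearly the same ratio. Cdk4, the main D-cyclin partner by level, had a value of 1223 with dox, against 1699 without dox, a log2 ratio of −0.47. It had the highest value of all members in both libraries, at rank 298 with dox and 168 without. Cdk2, the partner of the E-type cyclins, had a value of 297 with dox, against 413 without dox, a log2 ratio of −0.46. Both were within 2-fold, and the quotient of Cdk4 to Cdk2 per kb was 4.83 with dox and 4.82 without. With the mean length of the protein-coding transcripts this quotient was 7.81 with dox and 7.80 without. Cdk6, the other kinase that D-type cyclins bind, had a value of 15 with dox, against 41 without dox. Both values are under the floor, so it was not called, although its log2 ratio of −1.03 lies just past 2-fold. With a pseudocount of 50 that ratio was −0.49 and with 1 it was −1.39. Per kb, Cdk6 stood at 1.30 with dox and 3.56 without, against 596 with dox and 828 without for Cdk4, over an annotated transcript of 11525 nt for Cdk6. Cdk4 gave 82.7% of the summed kinase level with dox and 82.5% without dox.

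Both inhibitor genes had a larger value with dox, as did 3771 of the 8547 genes at or above the floor. Cdkn2b, which encodes the INK4 inhibitor p15, had a value of 58 with dox, against 17 without dox. It was 2.52-fold higher with dox, a log2 ratio of 1.33, and a ratio as high or higher was seen in 6.01% of the genes that reached the floor. Cdkn2b passed the floor only through its value with dox, so a gene with its value without dox had to differ to be counted at all. Its log2 ratio was 0.69, within 2-fold, at a pseudocount of 50, and 1.71 at a pseudocount of 1. Cdkn2b (ENSMUSG00000073802.5) lies on chromosome 4, minus strand, between 89306299 and 89311039. Cdkn1b, which encodes the CIP/KIP inhibitor p27, had a value of 128 with dox, against 93 without dox, a log2 ratio of 0.42 and within 2-fold. Per kb, Cdkn2b stood at 41.7 with dox and 12.2 without dox, and Cdkn1b at 28.1 with dox and 20.4 without dox. Without dox Cdkn2b was below Cdkn1b with each transcript length tried. With dox their order depends on the length: Cdkn2b was 1.48 times Cdkn1b here, and 0.946 times with the mean length of the protein-coding transcripts.

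**Figure D3:**
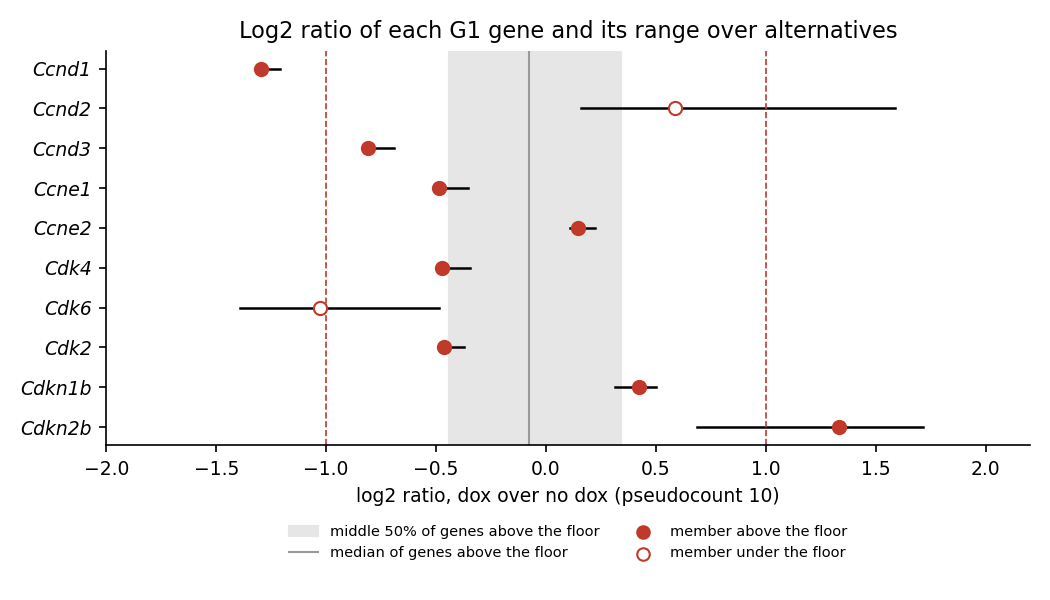
Log2 ratio of dox over no dox for each G1 gene (points, filled at or above the floor of 50 and open under it), with lines for the range over other pseudocounts, median centring and, for genes at or above the floor, removal of the length trend. Dashed lines mark 2-fold, and the grey band from −0.44 to 0.34 holds the middle of the distribution, between the quartiles, of all genes at or above the floor. Ccnd1 stays past 2-fold lower along its line, while that of Cdkn2b reaches inside 2-fold.

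In order of level per kb of the longest protein-coding transcript, the members with dox ran from Cdk4 through Ccnd3, Cdk2, Ccne1, Ccnd1, Cdkn2b, Ccne2, Cdkn1b and Cdk6 to Ccnd2. Without dox the order was Cdk4, Ccnd3, Ccnd1, Cdk2, Ccne1, Ccne2, Cdkn1b, Cdkn2b, Cdk6 and Ccnd2. Cdk4 was highest and Ccnd2 lowest in both libraries with each length tried. Several orders between them turned with another length. Among these were Ccnd1 and Ccnd3, Cdk2 and Ccne1 in both libraries, and with dox Cdkn2b and Cdkn1b. Which neighbours in these orders differ beyond the spread between cultures is unknown with 1 library per group.

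The other genes of the G1 pathway were taken as 7 lists with 60 genes that are not members, of which 53 reached the floor. With dox 1 of these 53 was higher by 2-fold or more and 3 were lower, while 49 lay within 2-fold. The shares over all genes at or above the floor were 9.23% higher and 5.49% lower. The median log2 ratio of the 53 was −0.34, beside −0.08 over all genes at or above the floor. Of the 5 other inhibitor genes 2 reached the floor and both were within 2-fold. Cdkn1a, the p21 gene, stood at 874 with dox and 735 without dox. Cdkn2a, which encodes the INK4 inhibitor p16 and the unrelated p19Arf from shared exons that 1 value per gene cannot separate, stood at 176 with dox and 99 without dox. Cdkn2a lies 11645 bases from Cdkn2b on the same strand. Both genes of this locus had a larger value with dox, as did 3771 of the 8547 genes at or above the floor, and only Cdkn2b passed 2-fold.

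Upstream and downstream of the retinoblastoma protein most genes were within 2-fold, as were 7289 of all 8547 genes at or above the floor. Of those 8547 genes, 9.23% were higher and 5.49% lower. Of 5 genes for CDK activation and folding all were, with the chaperone gene Cdc37 at 920 with dox and 873 without dox, and the phosphatase gene Cdc25a, which activates Cdk2, at 223 with dox and 416 without dox. Of 3 retinoblastoma family genes 2 reached the floor, Rb1 at 51 with dox and 43 without dox, and Rbl1 at 55 with dox and 66 without dox. Rbl2, named after its values were seen, was under the floor at 10 with dox and 31 without dox. Also under the floor and past 2-fold, and likewise named, were the E2F gene E2f2, at 6 with dox and 23 without dox, and Fbxo4, which encodes a ubiquitin ligase subunit, at 39 with dox and 11 without dox. Of 10 E2F and DP genes 8 reached the floor and 1 was higher, E2f8, which encodes an E2F family repressor, at 257 with dox and 53 without dox, a log2 ratio of 2.08. Of 11 genes for the turnover of G1 cyclins and p27, 10 reached the floor and all 10 were within 2-fold. Among them the ubiquitin ligase subunit gene Skp1a stood at 794 with dox and 1271 without dox, and Cul1 at 557 with dox and 632 without dox.

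The E2F target genes of the G1/S transition had the lowest median of the 7 lists, −0.65. Of their 21 ratios 20 were below 0, beside 54.9% of all genes at or above the floor. With dox 3 of the 21 were lower by 2-fold or more and 0 higher, while 18 lay within 2-fold. Over all genes at or above the floor, 5.49% were lower and 9.23% higher. The replicative helicase gene Mcm7 stood at 921 with dox and 2056 without dox, the replication licensing gene Cdc6 at 102 with dox and 261 without dox, and the uracil glycosylase gene Ung at 198 with dox and 482 without dox. The 5 cyclin and kinase genes of later phases were within 2-fold, with a median of −0.53. Ccnb1, the gene of the mitotic cyclin B1, stood at 841 with dox and 1224 without dox, and Ccnf at 608 with dox and 666 without dox. These lists describe 2 libraries, and whether they differ from other genes was not tested.

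**Figure D4:**
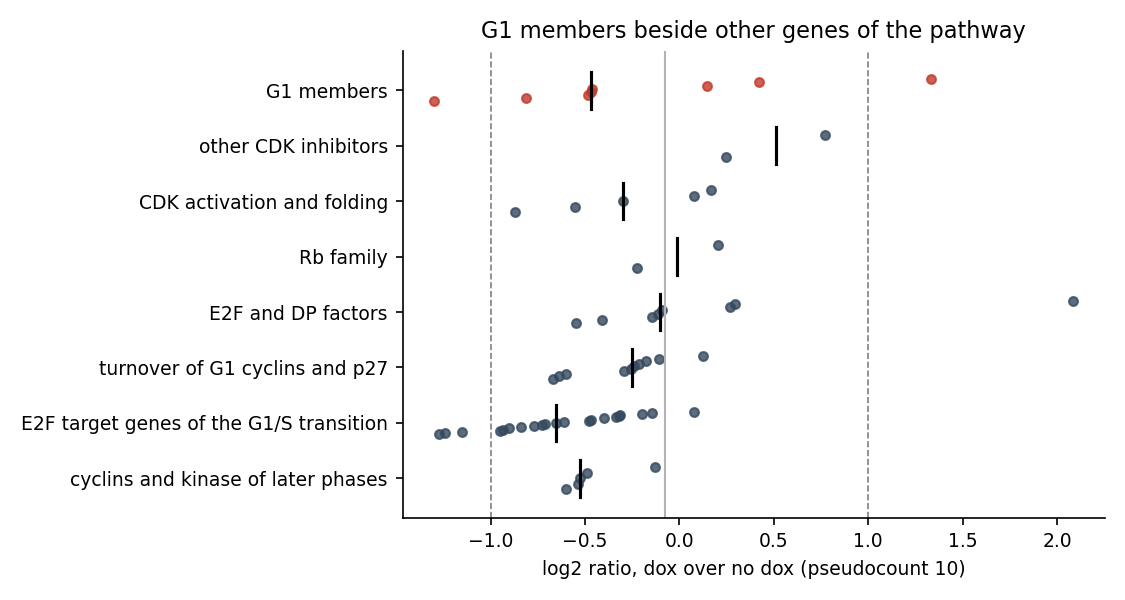
Log2 ratio of dox over no dox for the 8 G1 members at or above the floor (red) and for the 53 genes of 7 other lists of the pathway (dark), 1 point per gene, with black bars for medians, dashed lines for 2-fold and a grey line for the median of all genes at or above the floor, −0.08. The E2F target genes have a median of −0.65, and E2f8 stands alone at 2.08.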

How the data were processed

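Total RNA was extracted with TRIzol, and TruSeq RNA libraries were run on a NextSeq 500 sequencer, per the labels' protocols. bcl2fastq, Bowtie2, RSEM and the build mm10 are named in the submitters' processing notes. For versions, annotation, normalization and filters nothing is given by the sources used. The deposited values were treated as a score on a normalized count scale, rounded by the authors, because both libraries had the same quartiles and the same maximum of 14907. They were not used as read counts, so no count model and no counting interval was used. The table has 0 further columns of samples.

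The log2 ratio was that of the value with dox plus 10 over the value without dox plus 10. The floor was a larger value of at least 50, and the limit for a call was 2-fold. The members, lists and limits were chosen with earlier results of these data known. Named genes were all members, Jun, and from each of the 7 other pathway lists the genes at or above the floor and past 2-fold, otherwise the 2 with the largest values. Rbl2, E2f2, Fbxo4 and the cell type markers Pou5f1, Fgf4, Col3a1, Postn, Dcn and Lum were named after their values were seen. Transcript lengths and gene positions came from GENCODE M21 on GRCm38, the assembly of mm10, and a length was found for 99.1% of the genes that reached the floor. Promoters came from RefSeq on GRCm38.p6. The fold calls and the removal of the length trend were tested on simulated counts, which did not imitate the unstated normalization. Levels per kb and the motif search were not tested in this way. All steps were run in Python 3.11.15 with pandas 2.3.3, numpy 2.4.6 and statsmodels 0.14.6. Alternatives were pseudocounts of 1 and 50, no floor or 250, a 1.5-fold limit, median centring, removal of the trend on length (lowess, fraction 0.3) and other transcript lengths.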

Additional observations from a re-analysis of the deposited data

How the results depend on the processing

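The call of Ccnd1 as lower held under both other pseudocounts, median centring and removal of the length trend, with log2 ratios from −1.32 to −1.21. Cdkn2b was within 2-fold with a pseudocount of 50, and lies under a floor of 250, so 0 members were higher with either. With no floor 2 members were lower, Ccnd1 and Cdk6, and with a limit of 1.5-fold also 2, Ccnd1 and Ccnd3. Over all genes the counts of higher and lower were 789 and 469, and became 498 and 171 with a pseudocount of 50, 298 and 147 with a floor of 250, 1255 and 796 without any floor, and 1425 and 1511 with a 1.5-fold limit. Of 38 ratios of single members under the other pseudocounts, centring and length correction, 34 kept their direction and side of 2-fold. The other 4 were Cdkn2b and Cdk6 with a pseudocount of 50, Cdk6 at −0.95 with the median set to 0, and Ccnd2 at 1.58 with a pseudocount of 1, which is past 2-fold. No ratio changed sign, but a pseudocount cannot change a sign, and centring could turn only a ratio between −0.08 and 0. The share of Ccnd1 among the D-type cyclins, 41.0% with dox and 49.6% without, was 25.5% and 32.6% with the mean length of the protein-coding transcripts, and 54.7% and 63.4% with values not divided by length. With the longest transcript of any type, an alternative chosen after seeing the data, it was 55.7% and 64.2%. It was lower with dox under each, but no choice of length could have turned this direction. Each gene has the same length in both libraries, and the value of Ccnd1 with dox over that without was lower than those of Ccnd2 and Ccnd3. The level of Ccnd1 over that of Ccnd3, 0.701 with dox and 0.984 without, was 1.28 and 1.80 with that longest transcript, and 1.24 and 1.74 with values not divided by length. The level of Cdkn2b over that of Cdkn1b with dox, 1.48, was 0.946 with the mean length and 0.453 with values not divided. These quotients were added after seeing the data. No paired analysis was possible because each group has 1 library. The depth behind the values is unknown, which limits Ccnd2, Cdk6 and Cdkn2b most.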
